A study of Mus musculus with 12 samples.

Results

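The 7 fibroblast growth factor (FGF) ligand genes Fgf1, Fgf2, Fgf7, Fgf9, Fgf10, Fgf18 and Fgf20 were followed across 12 samples of newborn mouse skull profiled by RNA sequencing. They were taken by name as 7 of the 23358 genes of the deposited count table, and all 7 passed the filter on low counts, Fgf20 through the wild type C57BL/6 samples alone. Each sample was frontal bone at postnatal day 3, dissected together with the nasal bone and with the coronal and frontonasal sutures. The design crossed 2 inbred strains, C57BL/6 and BALB/c, with 2 genotypes, wild type and FGFR2 C342Y/+. The 4 groups of 3 samples were C57BL/6 wild type (replicates 1 to 3), C57BL/6 FGFR2 C342Y/+ (replicates 4 to 6), BALB/c wild type (replicates 13 to 15) and BALB/c FGFR2 C342Y/+ (replicates 16 to 18). The mutant mice carry 1 altered copy of FGF receptor 2 in every cell that uses the gene and model Crouzon syndrome, a disorder of premature closure of the skull sutures. The labels name no other allele and no agent, and they give neither the sex of the mice nor whether animals were pooled. Nothing in them says that the samples of a group came from separate litters. The p-values therefore judge group differences against the spread between these samples, which need not be that between litters.

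FGF ligands are signalling proteins that bind receptor tyrosine kinases at the cell surface together with heparan sulfate. Receptor splice forms set which ligand acts where: Fgf7 and Fgf10 are made by mesenchyme and act on the b form of FGFR2 in epithelium, whereas Fgf9, Fgf18 and Fgf20 act mainly on the c forms of mesenchyme, bone and cartilage. The C342Y change removes a cysteine of the third immunoglobulin-like loop in the c form, which lets receptors pair through disulfide bonds without ligand. In the skull, Fgf18 made by osteogenic mesenchyme is needed for normal bone formation and suture closure, and Fgf9 acts in the growth of cartilage and in joint formation.

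The total gene count per sample ran from 27181658 to 46521546. Osteoblast markers, 10 of 10 of which passed the filter, summed to 62280 CPM or more in every sample (CPM being counts scaled to a common library size), so the labelled bone was present throughout. The 3 C57BL/6 wild type samples and C57BL/6 mutant replicate 4 also held nasal epithelium. The 6 airway and nasal secretory markers summed to 167 to 583 CPM in C57BL/6 wild type and to 102 CPM in mutant replicate 4, but to 0.631 and 1.56 CPM in mutant replicates 5 and 6 and to at most 1.08 CPM in every BALB/c sample. Bpifa1 and Sec14l3 of this list were at 0 in all BALB/c wild type samples, and so was the keratin gene Krt14. BALB/c mutant replicate 16 stood apart in skeletal muscle markers (399 CPM, against 25.2 and 3.35 in replicates 17 and 18) and in Schwann and ensheathing glia markers (415 CPM, against 29.5 and 23.03). Y-linked transcripts were abundant in 3 of 3 C57BL/6 wild type samples and in 1 of 3 samples of each other group (replicates 6, 15 and 16). They were thus spread unevenly over the genotypes in C57BL/6. The run identifiers in the sample descriptions differ between the strains and are shared within a strain, so strain and sequencing run cannot be told apart. In bulk tissue, fewer cells of a type and less RNA per cell cannot be told apart either.

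Fgf9, Fgf10 and Fgf18 were the members with counts in every sample that were lower in the C57BL/6 mutants, and the 250 bases before their starts in RefSeq are shown because they moved together there. The sequences come from RefSeq on GRCm38.p6, read 5′ to 3′ on the strand of the gene, and 5 of the 7 members had an entry. None of these 3 windows holds a base of a GENCODE exon, but GENCODE places the starts of Fgf9 and Fgf10 further upstream, so their windows lie inside the GENCODE genes. Capitals mark a match to the GC box GGGCGG on either strand.
Fgf9, chr14:58072436-58072685, plus strand: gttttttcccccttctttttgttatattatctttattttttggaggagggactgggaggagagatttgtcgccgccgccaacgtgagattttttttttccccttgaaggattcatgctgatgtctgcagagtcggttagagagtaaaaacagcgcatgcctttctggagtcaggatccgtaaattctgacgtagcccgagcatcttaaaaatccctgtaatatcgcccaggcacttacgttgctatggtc
Fgf10, chr13:118714449-118714698, plus strand: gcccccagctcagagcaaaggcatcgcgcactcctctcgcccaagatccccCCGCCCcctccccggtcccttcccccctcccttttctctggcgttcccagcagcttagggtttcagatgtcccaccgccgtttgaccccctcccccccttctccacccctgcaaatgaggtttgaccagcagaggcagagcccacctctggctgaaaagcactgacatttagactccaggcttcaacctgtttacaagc
Fgf18, chr11:33147401-33147650, minus strand: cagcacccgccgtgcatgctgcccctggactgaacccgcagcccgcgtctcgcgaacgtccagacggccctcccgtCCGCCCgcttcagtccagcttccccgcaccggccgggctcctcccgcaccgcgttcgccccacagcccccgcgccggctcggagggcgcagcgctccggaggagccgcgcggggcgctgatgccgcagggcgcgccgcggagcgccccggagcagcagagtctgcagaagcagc

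The windows differ in base composition. The Fgf9 window is 44.8% G or C with 11 CpG steps, that of Fgf10 is 61.2% with 8, and that of Fgf18 is 77.2% with 37. Fgf10 and Fgf18 each hold 1 GC box and Fgf9 holds none, against 32.7% of 32851 windows of the same length with at least 1. On both strands, none of the 3 windows holds the TATA box TATAAA, the CCAAT box CCAAT, the RUNX motif TGTGGT or the ETS motif CCGGAA, which occur in 12.4%, 33.8%, 14% and 12% of all windows. No motif contains another, and these letters alone do not show where a factor binds.

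Coordinates of the 7 genes are those of the count table, on mm10. Fgf9 spans bases 58072686 to 58112720 of chromosome 14, Fgf20 spans 40279166 to 40286953 of chromosome 8, and Fgf18 spans 33117431 to 33147400 of chromosome 11. Fgf7 spans 126034658 to 126091185 of chromosome 2 and Fgf10 spans 118714699 to 118792573 of chromosome 13. Fgf1 spans 38838673 to 38918699 of chromosome 18 and Fgf2 spans 37348653 to 37404830 of chromosome 3. Within these spans, GENCODE exons of Fgf2 share 219 bases with the same-strand transcript Gm43439, and exons of Fgf10 share 69 bases with the antisense transcript Gm16263. Neither transcript is a row of the count table, and the strand setting of the counting is not given in the sources used here, so reads of these stretches cannot be told apart from the overlapping transcripts. The length given for Fgf2, 695 bases, is the shortest of the 7.

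Levels between genes were compared as CPM per kilobase of the gene length in the table. Fgf1 was the highest of the 7 in every group, with 5.90 ± 0.772 CPM per kilobase in C57BL/6 wild type and 10.04 ± 0.822 in BALB/c wild type (SD, n = 3). Fgf7 and Fgf18 came next and their ranges overlapped in 3 of the 4 groups. The exception was C57BL/6 mutants, where Fgf7 was at 3.32 ± 0.269 and Fgf18 at 1.36 ± 0.340 CPM per kilobase. Fgf18 was above Fgf7 in mean only in BALB/c wild type, at 5.20 ± 1.26 against 4.31 ± 0.775 CPM per kilobase. Fgf2, Fgf9 and Fgf10 followed, at group means between 0.486 CPM per kilobase (Fgf10 in C57BL/6 mutants) and 1.54 (Fgf2 in C57BL/6 wild type). Fgf2 and Fgf9 overlapped in both wild type groups, Fgf9 and Fgf10 overlapped in BALB/c mutants, and Fgf18 overlapped Fgf2 in both C57BL/6 groups. Fgf20 reached 0.739 ± 0.421 CPM per kilobase in C57BL/6 wild type, overlapping Fgf10, and had the lowest mean in every group.

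**Figure D1:**
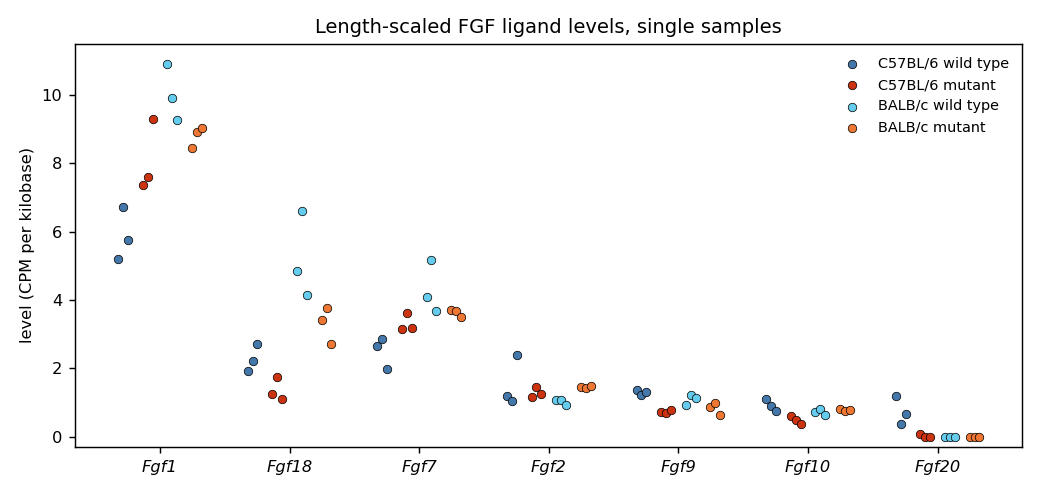
Level of each ligand gene in CPM per kilobase (y axis, linear) in each of the 12 samples, coloured by group and ordered along the x axis. Fgf1 stands above the other 6 genes in every group, and Fgf20 is at 0.367 CPM per kilobase or more in the C57BL/6 wild type samples and at 0.0918 or less in all others.

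The first comparison asked how the C342Y allele changes expression within C57BL/6. Fgf20 passed the filter on low counts through the wild type C57BL/6 samples alone, where it is high, so it is described by its values and left out of the counts of changed ligands here. Of the other 6 ligands, 4 changed in the mutants, with 1 higher (Fgf1) and 3 lower (Fgf9, Fgf10 and Fgf18), at an adjusted p under 0.05 in edgeR's quasi-likelihood test. Over all 16190 genes tested, 23.9% were called in this comparison, 11.3% higher and 12.6% lower. The median log2 difference of the 6 was −0.50, against −0.004 over all genes. The ranges of the genotypes did not overlap for 5 of the 6, Fgf2 being the exception, and for 41.6% of all genes tested. The count of 4 fell to 2 without mutant replicate 6 (Fgf9 and Fgf10) and to 1 when the model held only the groups compared (Fgf9). It was 3 without mutant replicate 4, the mutant sample with nasal epithelium.

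In BALB/c, 0 of the 6 ligands with counts changed by genotype in edgeR's quasi-likelihood test or in DESeq2, and 2 (Fgf9 and Fgf18) had an unadjusted p under 0.05. Over all genes 0.136% were called in this comparison, 0.0926% higher and 0.0432% lower. The ranges of the genotypes did not overlap for 3 of the 6 (Fgf1, Fgf2 and Fgf18), and for 20% of all genes tested. The median log2 difference of the 6 was −0.22, against 0 over all genes.

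The strain comparisons, BALB/c minus C57BL/6, share samples with the genotype comparisons, so their values are given side by side and are not independent. In wild type, 3 of the same 6 ligands differed, with Fgf1, Fgf7 and Fgf18 higher in BALB/c, where 48.5% of all genes were called, 22.8% higher and 25.6% lower. In mutants, 2 of the 6 differed, Fgf10 and Fgf18, both higher in BALB/c, where 36.9% of all genes were called, 18% higher and 18.9% lower. The median log2 strain difference of the 6 was 0.26 in wild type and 0.17 in mutants, against −0.001 and −0.004 over all genes. None of these shares of ligands was tested against all genes.

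**Figure D2:**
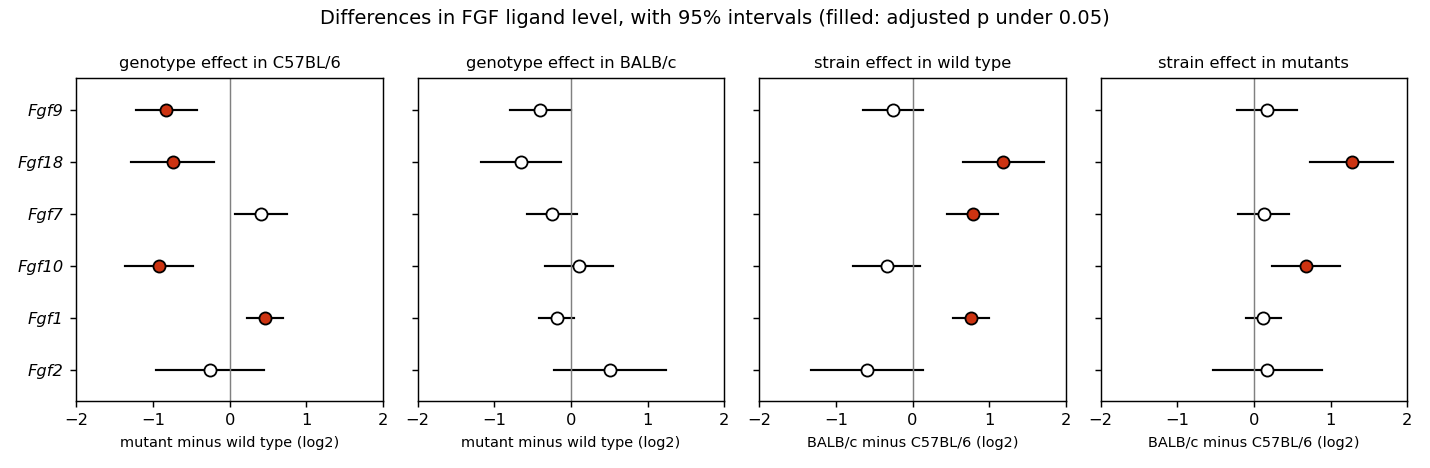
Log2 difference in level (x axis) of 6 ligand genes in the 2 genotype and 2 strain comparisons, with 95% intervals. Filled points have an adjusted p under 0.05. Fgf20 is left out because it has 0 counts in every BALB/c sample. Fgf9, Fgf18 and Fgf10 lie left of 0 for genotype in C57BL/6, and Fgf18 lies right of 0 for strain in both genotypes.

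Fgf9, which acts on mesenchyme and is a close relative of Fgf20 in sequence, was lower in C57BL/6 mutants. It stood at 5.72, 5.06 and 5.41 CPM in the C57BL/6 wild type samples and at 2.94, 2.91 and 3.29 CPM in the mutants. The lowest wild type sample was above the highest mutant, and the spread within each group was small. The fitted level in mutants was 0.564 of that in wild type (log2 difference −0.83, SE 0.18, adjusted p = 0.00871). The call remained in each of the 6 fits that left out 1 C57BL/6 sample, at adjusted p-values of 0.0131 to 0.0318. In BALB/c, Fgf9 stood at 3.83, 5.06 and 4.69 CPM in wild type and at 3.54, 4.09 and 2.66 CPM in mutants. Those ranges overlapped, and the log2 difference of −0.40 (95% interval −0.80 to −0.01) had an adjusted p of 0.416. The genotype effect in BALB/c minus that in C57BL/6 was 0.42 (log2, SE 0.26), with an adjusted p of 0.288, and Fgf9 showed no strain difference past the threshold in wild type (log2 −0.25, adjusted p = 0.267) or in mutants (log2 0.17, adjusted p = 0.489).

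Fgf20, which progenitors of the olfactory epithelium and the inner ear are known to make, was almost confined to C57BL/6 wild type in these libraries. Its counts there were 68, 18 and 36, equal to 1.77, 0.542 and 0.965 CPM. C57BL/6 mutant replicate 4 held 6 counts, and replicates 5 and 6 and all 6 BALB/c samples held 0. No fitted difference between the C57BL/6 genotypes is given, since the mutant libraries are at or under the limit of detection set out next. The adjusted p for that comparison was 0.0217 in edgeR without the filter, 0.279 in DESeq2 and 0.00418 to 0.0804 when 1 sample was left out, so no call is made. All counts in the table are even, so a read pair is taken to add 2 counts, and a count of 0 allows up to 3 read pairs, or 6 counts. That limit is 0.176 to 0.225 CPM in the BALB/c wild type libraries. Against that limit, taken as the mean over the 3 libraries, the C57BL/6 wild type mean was at least 5.58-fold higher, and its lowest sample was 2.77 times the limit. Against the same limit in BALB/c mutants it was at least 7.16-fold higher. No genotype difference within BALB/c could be measured.

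The samples with Fgf20 counts were the samples with nasal epithelium. In C57BL/6 wild type, the airway and nasal secretory list summed to 583 CPM in replicate 1, 167 in replicate 2 and 243 in replicate 3. The 8 basal and simple epithelium markers summed to 231, 308 and 125 CPM in these samples, to 69.95 CPM in mutant replicate 4, and to between 2.78 and 6.18 CPM in the other 8 samples. The 8 olfactory neuron markers summed to 232 to 359 CPM in C57BL/6 wild type, 130 to 214 CPM in C57BL/6 mutants and 79.3 to 89.4 CPM in BALB/c. Adcy3 made up most of the sums outside C57BL/6 wild type. Its group means were 88.1 and 125 CPM in C57BL/6 wild type and mutants and 75.3 and 77.4 CPM in BALB/c. Omp of the same list had group means of 69.1 and 12.4 CPM (mutants 0.485 to 36.1) in C57BL/6, and 0.565 and 0.348 CPM in BALB/c. Like Fgf20, 5 of 6 secretory and 5 of 8 basal markers would not have passed the filter on low counts without the C57BL/6 wild type samples, so no count of changed genes is given for these lists. The part of these cells in the Fgf20 result was not tested.

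Cartilage markers also differed between the C57BL/6 groups. The 10 cartilage genes in the table summed to 8815 to 10730 CPM in C57BL/6 wild type and to 6682, 3674 and 4067 CPM in mutant replicates 4, 5 and 6. Col11a2 weighed heavily in these sums, with group means of 3063 and 3605 CPM in C57BL/6 wild type and mutants and 3030 and 3523 CPM in BALB/c. Col2a1 stood at 3905, 687, 683 and 1785 CPM in the same order. In C57BL/6 the log2 difference was negative for 9 of the 10 and positive for 1, with a list median of −2.50. Of the 10, 3 were lower in C57BL/6 mutants and 0 higher, where 12.6% of all genes were lower, and 9 were lower without mutant replicate 4. DESeq2 gave a p to 7 of the 10 and called 2 lower and 1 higher. In BALB/c, where edgeR called 0 of the 10 (1 at an unadjusted p under 0.05) and DESeq2 0 of 7, the sums were 3726 to 4925 CPM in wild type, 4691 and 4447 CPM in mutant replicates 16 and 18, and 9515 CPM in mutant replicate 17, where the secretory and basal epithelium lists summed to 0.861 and 4.13 CPM. Osteoblast markers went the other way in C57BL/6, with 8 of 10 higher in mutants, where 11.3% of all genes were higher, and sums of 117600 to 142500 CPM against 62280 to 109800 CPM. Osteoclast and macrophage markers were higher for 5 of 5 genes, at 7546 to 8421 CPM against 3605 to 4419 CPM, and 6 of 8 erythroid markers were lower, at 54.2 to 83.9 CPM against 205 to 273 CPM. The part of these shifts in the levels of Fgf9, Fgf10, Fgf18 and Fgf1 was not tested.

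**Figure D3:**
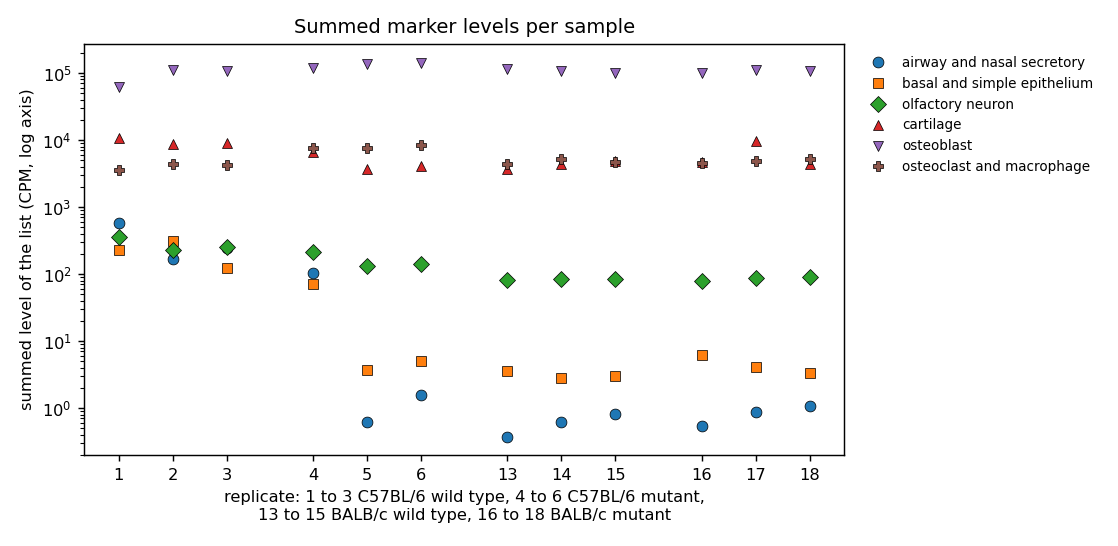
Summed level in CPM (y axis, log scale) of 6 marker lists in each of the 12 samples, ordered by replicate. The secretory and basal epithelium lists are at 69.95 CPM or more in replicates 1 to 4 and at 6.18 CPM or less in the other 8 samples.

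Fgf18, the ligand of osteogenic mesenchyme, fell in C57BL/6 mutants and was higher in the BALB/c strain in both genotypes. It stood at 2.08, 2.41 and 2.95 CPM in C57BL/6 wild type and at 1.36, 1.89 and 1.19 CPM in C57BL/6 mutants. In BALB/c it stood at 5.26, 7.16 and 4.51 CPM in wild type and at 3.72, 4.09 and 2.95 CPM in mutants. The mutants were below the wild type samples in each strain without overlap. In C57BL/6 the log2 difference was −0.74 (SE 0.25, adjusted p = 0.048). That call was lost in 5 of the 6 fits that left out 1 C57BL/6 sample, at adjusted p-values up to 0.16, and remained without mutant replicate 5 (0.0376). It was also lost without the filter on low counts (0.0597) and when the model held only the groups compared (0.105). In BALB/c the log2 difference was −0.65 (95% interval −1.18 to −0.13, adjusted p = 0.315). The genotype effect in BALB/c minus that in C57BL/6 was 0.09 (log2), with a 95% interval from −0.65 to 0.84 that spans differences in either direction.

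The strain difference of Fgf18 had the same direction and a similar fitted size in both genotypes. BALB/c wild type was 2.28 times C57BL/6 wild type (log2 1.19, SE 0.24, adjusted p = 0.00212), and BALB/c mutants were 2.42 times C57BL/6 mutants (log2 1.28, SE 0.25, adjusted p = 0.00187). Both calls remained in all fits that left out 1 sample, at adjusted p-values of 0.0114 or less. The 8 suture and periosteal mesenchyme markers, the list for the tissue in which this ligand is known to be made, summed to 1667 to 2382 CPM in C57BL/6 wild type and to 1730 to 2058 CPM in BALB/c wild type. Postn made up most of these sums, with group means of 1653 and 1264 CPM. In wild type the log2 strain difference was positive for 6 of the 8 and negative for 2, with a list median of 0.38. In mutants that median was 0.22. Of these 8 genes, 5 were higher and 1 lower in BALB/c wild type, where 48.5% of all genes were called, and 2 were higher and 0 lower in BALB/c mutants, where 36.9% were. Other lists also differed by strain. In wild type, 4 of 10 cartilage markers were lower in BALB/c and 0 higher. In mutants, 5 of 5 osteoclast and macrophage markers were lower in BALB/c, as were 5 of 10 osteoblast markers, with 2 higher. Erythroid markers summed to 448 to 545 CPM in BALB/c mutants against 54.2 to 83.9 CPM in C57BL/6 mutants. The part of these cell types in the Fgf18 difference was not tested.

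Fgf10, the mesenchymal ligand needed for lung and limb buds, was lower in C57BL/6 mutants. It stood at 4.99, 4.16 and 3.49 CPM in C57BL/6 wild type and at 2.71, 2.23 and 1.72 CPM in mutants. The ranges did not overlap, and the fitted level in mutants was 0.529 of wild type (log2 −0.92, SE 0.20, adjusted p = 0.00912). The call remained in each of the 6 fits that left out 1 C57BL/6 sample (adjusted p-values 0.00308 to 0.0428) and was lost when the model held only the 2 groups compared (0.0577). In BALB/c it stood at 3.31, 3.77 and 2.93 CPM in wild type and at 3.66, 3.49 and 3.59 CPM in mutants, which overlapped (log2 0.10, 95% interval −0.34 to 0.54, adjusted p = 0.907).

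The genotype effect of Fgf10 differed between the strains, being 1.02 higher in BALB/c (log2, SE 0.29) with an adjusted p of 0.0445. In this test of the difference between strains, 2 of the 6 ligands that could be tested passed, Fgf10 and Fgf1, where 10% of all genes were called, 5.46% higher and 4.58% lower. The Fgf10 call was lost in 10 of the 12 fits that left out 1 sample, at adjusted p-values up to 0.101, and remained without C57BL/6 wild type replicate 3 (0.0344) or C57BL/6 mutant replicate 4 (0.0146). It was also lost without the filter on low counts (0.0602). Among mutants Fgf10 was 1.61 times as high in BALB/c as in C57BL/6 (log2 0.68, SE 0.20, adjusted p = 0.0204). That call was lost without C57BL/6 mutant replicate 6 (0.0737), BALB/c mutant replicate 16 (0.0538), the sample with raised muscle and glia markers, or BALB/c mutant replicate 18 (0.0504). The part of those cells was not tested. In wild type the strain difference of −0.34 (95% interval −0.78 to 0.10) had an adjusted p of 0.189.

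Fgf7, the other mesenchymal ligand for the epithelial receptor form and also called keratinocyte growth factor, had an opposite sign to Fgf10 in C57BL/6. It stood at 7.12, 7.65 and 5.31 CPM in wild type and at 8.40, 9.70 and 8.51 CPM in mutants. The ranges did not overlap, but the log2 difference of 0.41 (SE 0.15) had an adjusted p of 0.0722. It was 0.205 with total counts and 0.26 without wild type replicate 3. In BALB/c it stood at 10.9, 13.8 and 9.84 CPM in wild type and at 9.89, 9.86 and 9.35 CPM in mutants, which overlapped (log2 −0.25, 95% interval −0.58 to 0.08, adjusted p = 0.587). The wild type strains differed more clearly, with BALB/c at 1.72 times C57BL/6 (log2 0.79, SE 0.15, adjusted p = 0.00162). That call remained in all 6 fits that left out 1 wild type sample. Among mutants the strain difference was 0.13 (95% interval −0.20 to 0.46, adjusted p = 0.543). The difference between the genotype effects was −0.66 (SE 0.22), with an adjusted p of 0.072 in edgeR and 0.0357 in DESeq2, and was −0.42 with total counts (adjusted p = 0.241).

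Fgf1, a ligand without a signal peptide that can bind all FGF receptors, was the only member that was higher in C57BL/6 mutants at the threshold. It stood at 20.4, 26.3 and 22.5 CPM in C57BL/6 wild type and at 28.8, 29.8 and 36.4 CPM in mutants. The fitted ratio was 1.37 (log2 0.46, SE 0.11, adjusted p = 0.0115). Scaling by total counts gave a log2 difference of 0.27 (adjusted p = 0.0472), and the call was lost without mutant replicate 6 (0.0538) and when the model held only the groups compared (0.0723). In BALB/c it stood at 42.7, 38.7 and 36.3 CPM in wild type and at 33.1, 34.9 and 35.3 CPM in mutants. The BALB/c mutants lay just below the wild type samples without overlap, and the log2 difference of −0.19 (95% interval −0.42 to 0.04) had an adjusted p of 0.546.

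The genotype effect of Fgf1 also differed between strains, at −0.65 for BALB/c minus C57BL/6 (log2, SE 0.15) with an adjusted p of 0.0244. The call was lost in 5 of the 12 fits that left out 1 sample, namely C57BL/6 mutant 6, BALB/c wild type 13 or 14, and BALB/c mutant 16 or 17, with adjusted p-values up to 0.062, and also with scaling by total counts (log2 −0.42, adjusted p = 0.0556). BALB/c wild type was 1.70 times C57BL/6 wild type (log2 0.77, SE 0.11, adjusted p = 0.00019), and this call remained in all fits that left out 1 sample. Among mutants the strain difference was 0.12 (95% interval −0.11 to 0.35, adjusted p = 0.394).

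Fgf2, a ligand stored in bone matrix that is exported without a signal peptide, had the fewest counts among members seen in every sample, 20 to 62 per library. It stood at 0.831, 0.723 and 1.66 CPM in C57BL/6 wild type and at 0.813, 1.02 and 0.862 CPM in mutants. Wild type replicate 3 stood apart from the other 11 samples, which were all between 0.644 and 1.03 CPM. The log2 difference of −0.26 (95% interval −0.97 to 0.45, adjusted p = 0.597) became 0.21 without that sample. In BALB/c it stood at 0.751, 0.741 and 0.644 CPM in wild type and at 1.02, 0.990 and 1.03 CPM in mutants. The mutants were above wild type without overlap, but the log2 difference of 0.51 (95% interval −0.22 to 1.24) had an adjusted p of 0.614. No Fgf2 difference passed the threshold in either strain comparison (log2 −0.59, adjusted p = 0.163 in wild type, and 0.18, adjusted p = 0.708 in mutants). Without C57BL/6 wild type replicate 3 the wild type strain difference was −0.13.

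**Figure D4:**
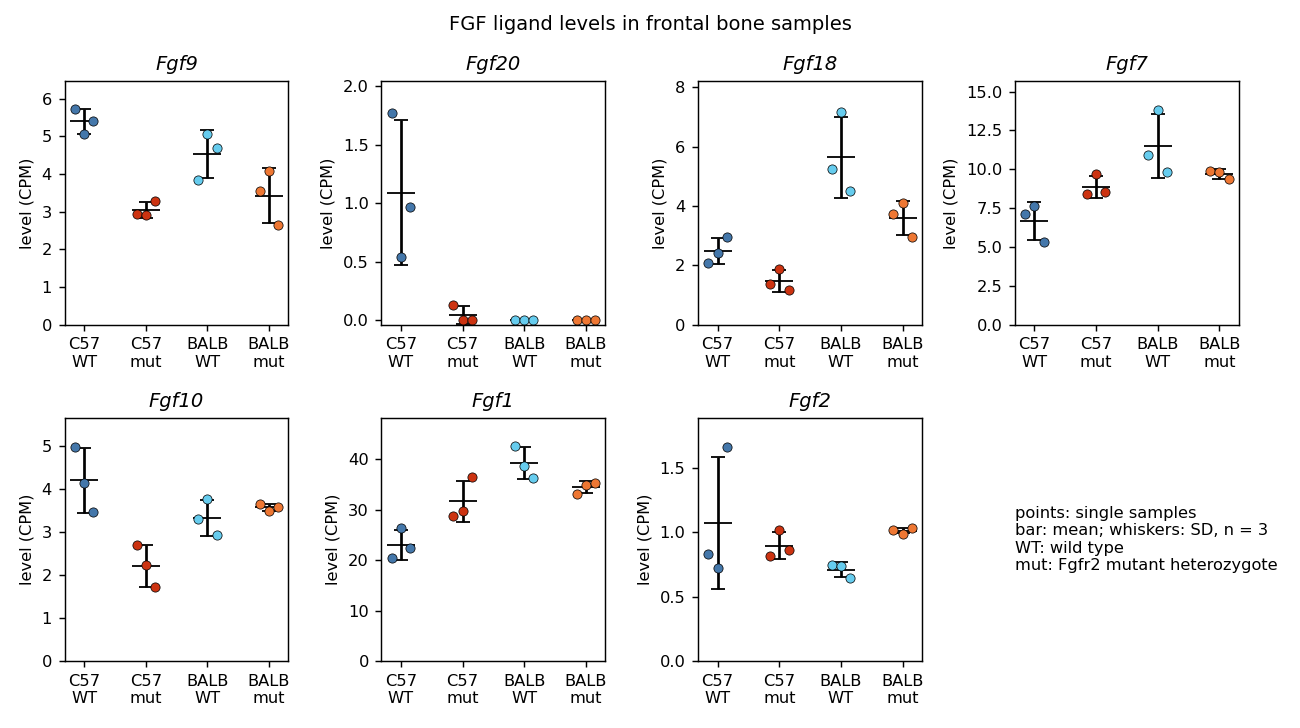
Level in CPM (y axis, linear, separate scale per gene) of the 7 ligand genes in the 4 groups. Points are single samples, bars are means and whiskers are SD (n = 3). Fgf9, Fgf10, Fgf18 and Fgf20 are lower in C57BL/6 mutants than in C57BL/6 wild type without overlap. Fgf1 and Fgf7 lie above wild type there, Fgf7 with an adjusted p of 0.0722.

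Of the other 15 FGF ligand genes, 9 passed the filter on low counts. Fgf15 did so through C57BL/6 wild type alone and is described by its values. In C57BL/6, 2 of the other 8 were lower in mutants and 0 higher, where 12.6% of all genes were lower. The number lower was 4 with total counts and 3 with DESeq2. Fgf16, the remaining member of the subfamily of Fgf9 and Fgf20, had 22, 10 and 16 counts in wild type and 6, 2 and 2 in mutants (adjusted p = 0.0105). Its mutant libraries are all at or under the limit of 6 counts used for Fgf20, so no fitted size is given. Fgf12, a relative that stays inside cells and binds sodium channels, stood at 5.83 ± 0.964 CPM in wild type and 1.40 ± 1.57 CPM in mutants (SD, n = 3; log2 −2.05, adjusted p = 0.0246). Its mutant samples were uneven, with 3.21 CPM in replicate 4 against 0.388 and 0.593 CPM in replicates 5 and 6. In BALB/c 0 of the 8 with counts changed by edgeR, 0 had an unadjusted p under 0.05, and DESeq2 called 0 of 7. Fgf15 had 0 counts in every BALB/c sample and stood at a mean of 0.469 CPM in C57BL/6 wild type and 0.109 CPM in C57BL/6 mutants. By strain, 0 of the 8 differed in wild type by edgeR, where 48.5% of all genes were called. In mutants 2 of the 8 were higher in BALB/c and 0 lower, where 18% of all genes were higher. They were Fgf14 (log2 1.22, adjusted p = 0.0107) and Fgf16 (adjusted p = 0.0411, and 0.0768 by DESeq2). No fitted size is given for Fgf16 here either, since its C57BL/6 mutant libraries are at or under that limit. The median log2 difference of the 8 was −0.43 for genotype in C57BL/6.

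The co-receptors Kl and Klb reached the level of the filter in 3 of 12 samples each, through some of the groups, and are left out. Of the 5 receptor genes tested, 2 were higher and 2 lower in C57BL/6 mutants, where 11.3% of all genes were higher and 12.6% lower. Fgfr2, which carries the allele, stood at 249 ± 35.9 CPM in C57BL/6 wild type and 361 ± 20.6 CPM in mutants (log2 0.54, SE 0.10, adjusted p = 0.00405). Its counts cannot check the genotype, since they do not separate the alleles. Fgfr1 was also higher (log2 0.51, adjusted p = 0.0037), while Fgfr4 (log2 −1.59, adjusted p = 0.0407) and the short receptor Fgfrl1 (log2 −0.52, adjusted p = 0.0119) were lower. In BALB/c 0 of 5 changed by edgeR, with 0 at an unadjusted p under 0.05 and 0 by DESeq2, and Fgfr2 stood at 282 ± 11.4 and 300 ± 24.95 CPM (log2 0.09, 95% interval −0.13 to 0.31). In wild type, Fgfr3 (log2 −0.34, adjusted p = 0.00897) and Fgfrl1 (log2 −0.34, adjusted p = 0.0385) were lower in BALB/c, where 25.6% of all genes were lower. In mutants 0 of the 5 differed by strain in edgeR, with 3 at an unadjusted p under 0.05, where 36.9% of all genes were called. DESeq2, with Kl and Klb included, called 3 of 7 lower there. The genotype effect of Fgfr1, 1 of the 5, differed between strains (log2 −0.46, adjusted p = 0.0473), where 10% of all genes were called. That call was lost under RLE size factors and under scaling by total counts. The median log2 difference of the 5 was −0.058 for genotype in C57BL/6 and 0.052 in BALB/c.

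Heparan sulfate proteoglycans and the enzymes that build their chains hold FGF ligands at the cell surface. Of 21 such genes tested, 7 were higher and 4 lower in C57BL/6 mutants, where 11.3% of all genes were higher and 12.6% lower. When scaled by total counts 4 were higher and 4 lower. Gpc4 (log2 0.54, adjusted p = 0.000589) and the chain polymerase Ext1 (log2 0.40, adjusted p = 0.00586) were higher. Gpc2 (log2 −0.97, adjusted p = 0.00173) and the sulfotransferase Hs6st1 (log2 −0.33, adjusted p = 0.00383) were lower. In BALB/c 0 of the 21 changed by edgeR, with 1 at an unadjusted p under 0.05 and 0 by DESeq2. The genotype effects of Gpc4, Gpc2 and Hs6st1 were among the 5 of 21 that differed between strains (adjusted p-values 0.01, 0.0314 and 0.0346), a count of 3 with total counts and 8 with DESeq2, where 10% of all genes were called. By strain, 4 were higher and 5 lower in BALB/c wild type, where 48.5% of all genes were called. In BALB/c mutants 1 was higher and 7 lower, where 36.9% were called, and with total counts 3 were higher and 5 lower. The list's median log2 difference was 0.17 for genotype in C57BL/6 and −0.09 in BALB/c.

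Targets and feedback inhibitors of FGF signalling through ERK gave a mixed picture in C57BL/6. Of 13 genes tested, 3 were higher in mutants, namely the ETS factor Etv5 (log2 0.44, adjusted p = 0.00377) and the inhibitors Spry1 (log2 0.38, adjusted p = 0.00926) and Spred1 (log2 0.30, adjusted p = 0.0302). The inhibitors Il17rd (log2 −0.73, adjusted p = 0.0321) and Spry2 (log2 −0.21, adjusted p = 0.0449) were lower. Over all genes 11.3% were higher and 12.6% lower. With scaling by total counts 1 was higher (Etv5, log2 0.24, adjusted p = 0.0455) and 2 lower, and the adjusted p of Spry2 was 0.108 without mutant replicate 4 and 0.0554 with DESeq2. In BALB/c 0 of 13 changed by edgeR, with 1 at an unadjusted p under 0.05 and 0 by DESeq2. Etv5 was the 1 gene of 13 whose genotype effect differed between strains, where 10% of all genes were called (log2 −0.51, SE 0.12, adjusted p = 0.0214, and 0.125 with total counts). By strain, 6 of 13 were lower and 1 higher in BALB/c wild type, where 48.5% of all genes were called, and 7 lower and 0 higher in BALB/c mutants, where 36.9% were. With total counts these became 9 lower and 0 higher, and 4 lower and 0 higher. Il17rd was the most reduced of those named in wild type (log2 −1.60, adjusted p = 0.000212), and Spred1 was lower in mutants (log2 −0.66, adjusted p = 0.000148). The list's median log2 strain difference was −0.31 in wild type and −0.36 in mutants.

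For each ligand, the genes with the most similar pattern over the 12 samples were found by the root mean square difference of mean-centred log2 CPM, among up to 12771 genes. For Fgf9 the nearest were Chrdl1 (0.168), Rab20 (0.183) and Adamtsl4 (0.185), against an SD of Fgf9 itself of 0.377. Chrdl1, a secreted BMP antagonist, stood at group means of 70.8 and 42.8 CPM in C57BL/6 wild type and mutants and 59.2 and 44.0 CPM in BALB/c. For Fgf18 they were Col8a1 (0.241), Adh7 (0.255) and Mfap4 (0.28), and Col8a1, a collagen VIII chain, stood at 129, 87.4, 314 and 174 CPM in the same order of groups. For Fgf20 they were Gstm1 (0.403), the epithelial adhesion gene Epcam (0.428) and Wfdc2 (0.434), against an SD of 1.94. Epcam stood at 38.5 CPM in C57BL/6 wild type, 7.996 in C57BL/6 mutants and 2.26 and 2.50 in BALB/c. For Fgf10 they were Hip1r (0.111), Cdca2 (0.12) and Snn (0.123), and Hip1r stood at 25.9, 13.99, 19.01 and 22.7 CPM.

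Fgf1 was matched most closely by Pyroxd2 (0.086), Ushbp1 (0.088) and Rab31 (0.091), and Fgf7 by Myzap (0.118), Chic2 (0.127) and Slc17a5 (0.146). Rab31, an endosomal GTPase, stood at 76.1 CPM in C57BL/6 wild type, 98.5 in C57BL/6 mutants, 126 in BALB/c wild type and 116 in BALB/c mutants. The nearest to Fgf2 were Fam46c (0.221), Pdss1 (0.233) and Npnt (0.238), against an SD of Fgf2 itself of 0.341. These distances are descriptions over samples that share libraries and group structure.

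The authors' deposited table of DESeq2 comparisons gave a q-value under 0.05 to 4 of the 7 ligands for genotype in C57BL/6, and all 4 were also called here. In the authors' deposited table Fgf20 had a q-value of 0.17 for that comparison, with a log2 fold change of −0.11. That size is not comparable with the group means here, 1.09 CPM in C57BL/6 wild type and 0.0452 CPM in mutants. How it was estimated is not given in the sources used here. For genotype in BALB/c the authors' deposited table held 0 of the 7 under 0.05, and for strain in mutants it held the same 2, Fgf10 and Fgf18. For strain in wild type the authors' deposited table held 4 under 0.05, of which 3 were called here. The other was Fgf10 (q = 0.0382), and Fgf20 had q = 0.102.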

How the data were processed

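RNA of 12 samples was sequenced from mRNA libraries made after collagenase and trypsin digestion and Trizol extraction, per the labels' protocols. The submitters' processing notes name bcl2fastq, TopHat2 2.0.6, HTSeq, DESeq2 and mm10, without roles. The authors deposited raw counts for 23358 genes with an RPKM value and a gene length. All deposited counts were even (0 odd values). The authors' RPKM values, used only as a check, equalled count per length and library total, and gene counts were 75.6% to 80.7% of that total in C57BL/6 and 86.4% to 88.0% in BALB/c. The authors' table of comparisons holds p-values and q-values beside log2 fold changes. Value columns belonging to no sample numbered 0.

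Counts were tested with edgeR 4.0.16 in R 4.3.3: filterByExpr (minimum count 10, minimum total 15), TMM, 1 mean for each of the 4 groups over all 12 samples, quasi-likelihood F tests (two-sided) and Benjamini-Hochberg adjustment over 16190 genes. CPM divide each count by the TMM-scaled library size, and log2 CPM used a prior count of 2. Standard errors are those implied by F. Floors of 3 read pairs, taken as 6 counts because every count is even, cover counting error alone, because these reads carry no molecular identifiers and need not be independent. The steps were tested on simulated data. The members and lists were chosen with earlier results of these data known. Named were all 7 members, Fgfr2, the 3 genes closest in pattern to each member (mean of at least 1 CPM) and up to 4 genes with the smallest p per list. Epcam, Chrdl1, Col8a1, Hip1r and Rab31 were chosen for their group means after these were seen. So were Adcy3, Omp, Col11a2, Col2a1 and Postn. Fgf15, Spry2, Kl, Klb, Bpifa1, Sec14l3 and Krt14 were chosen in the same way for their values. Alternatives were DESeq2 1.42.0, RLE factors, total counts, no filter, only the groups compared, a term for Y-linked transcripts and leaving out each sample.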

Additional observations from a re-analysis of the deposited data

Results flagged for a closer look

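The genotype effect (mutant minus wild type) differed between the strains for 2 ligands, by edgeR's test of the difference itself. For Fgf1 the effect in BALB/c minus that in C57BL/6 was −0.65 on the log2 scale (adjusted p = 0.0244), with all 3 C57BL/6 mutants above, and all 3 BALB/c mutants below, the wild type samples of their strain. For Fgf10 it was 1.02 (adjusted p = 0.0445), with all 3 C57BL/6 mutants below wild type and overlapping samples in BALB/c. Over all genes 10% were called in this test. Leaving out 1 sample ended the Fgf1 call in 5 of 12 cases and the Fgf10 call in 10 of 12.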

How the results depend on the processing

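Genes called for genotype in C57BL/6 numbered 3867, and 1458 with only the groups compared, and 1724 to 4833 when 1 sample was left out. The ligands other than Fgf20 called numbered 4, then 1, and 2 to 4. Fgf20 passed the filter only where it is high, so counts that include it (5, then 2, and 2 to 4) support nothing more. With the Y-linked term 2602 genes were called for genotype in C57BL/6, and the 4 ligands other than Fgf20 remained called. For genotype in BALB/c the 22 genes called became 318 with DESeq2, 4 with total counts, 4 with the Y-linked term, 71 with only the groups compared and 0 to 95 when 1 sample was left out, while 0 ligands were called in each. For strain in wild type 3 ligands other than Fgf20 were called under every alternative run, and in mutants 2, or 1 to 2 when 1 sample was left out. For the difference between genotype effects, 1626 genes became 2693 with DESeq2, 1052 with the Y-linked term and 624 to 3129 when 1 sample was left out; the 2 ligands became 1 with total counts, 1 without the filter, 3 with DESeq2 and 0 to 2 when 1 sample was left out.

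The log2 value of Fgf2 for genotype in C57BL/6 ranged from −0.47 to 0.21 when 1 sample was left out, and turned without wild type replicate 3 (0.21). That of Fgf18 for the difference between genotype effects ranged from −0.049 to 0.31 and turned in 4 of 12 cases. Among differences that missed the threshold, Fgf9 for genotype in BALB/c became −0.25 without mutant replicate 18, Fgf10 for strain in wild type became −0.19 without C57BL/6 replicate 1, and the Fgf9 difference between genotype effects became 0.66 with total counts and 0.28 without BALB/c mutant replicate 17. Called ligands kept their sign in every alternative run. The cause of these changes was not tested, beyond the smaller number of samples in fits that left some out.

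Scaling by total counts moved the median log2 difference of all genes by −0.196 for genotype in C57BL/6, −0.115 for strain in wild type, 0.117 for strain in mutants and 0.231 for the difference between genotype effects. The share of calls that were higher then went from 47.45% to 13.16%, from 47.13% to 31.15%, from 48.83% to 67.84% and from 54.37% to 90.53%. The counts of list genes under other scalings and without C57BL/6 mutant replicate 4 were chosen after seeing the data. Fgf20 had no value for genotype in BALB/c or for the difference between genotype effects, nor for strain in mutants without C57BL/6 mutant replicate 4 or with only the groups compared. No paired analysis was possible because the groups share no replicate numbers.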
